A study of Mus musculus with 24 samples.

Results

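The 6 genes described here, *Sost*, *Phex*, *Pdpn*, *Fgf23*, *Mef2c* and *Gja1*, are genes of the osteocyte or of the osteoblast turning into one, and were found by symbol among the 55335 genes of each count file, with 1 entry each. They were measured by bulk RNASeq in primary osteoblasts (OBs) from the parietal bones of pups a few days old, grown under osteogenic differentiation. The cells were wild type (WT) or heterozygous (Het) for G610C, an allele of *Col1a2* in which a cysteine replaces a glycine of the type I procollagen helix, carried in every cell on a C57BL/6J background. RNA was collected 8, 14 and 21 days from seeding, and each of these 6 groups has 4 libraries (24 in all). Cells were pooled from several pups of a genotype, and the study's methods describe a pair of experiments with different litters, seeding densities and oxygen, to which the labels do not assign the libraries. Those methods give 1 well per genotype and day in the first and 2 in the second, 3 in all against 4 libraries here, so how the libraries map to wells is not known. Replicates may thus be wells of the same pooled cells, and the p-values below measure only the spread between these libraries.

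Osteocytes are osteoblasts that have been buried in the matrix they made and that signal through long processes. Sclerostin, the product of *Sost*, leaves the osteocyte and blocks the Wnt coreceptors LRP5 and LRP6 on osteoblasts, so it restrains bone formation. PHEX is a membrane endopeptidase that acts with DMP1 to hold back FGF23, the bone hormone that makes the kidney excrete phosphate. Podoplanin (*Pdpn*) is a membrane glycoprotein of the young osteocyte that links to the actin skeleton through ERM proteins, connexin 43 (*Gja1*) forms the gap junctions between the cell processes, and MEF2C is a transcription factor that acts on an enhancer downstream of *Sost*.

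Levels are given as relative quantity (RQ), the reads of the gene over the geometric mean of the reads of 4 housekeeping genes (*Sdha*, *Mrfap1*, *Actb* and *Actg1*), library by library. Libraries held 17140202 to 59734231 counted reads (median 48340136). The 6 libraries numbered replicate 1 were the shallowest (17140202 to 25825762 reads, against 28159342 or more in the other 18), their files are named in another style, and they often stood apart, so values are also given without them. The labelled cell type was checked on 10 osteoblast markers (*Col1a1*, *Runx2*, *Sp7*, *Ibsp* and others), all of which had counts in every group, with a summed RQ of 37.1 to 91.7 at day 8 and of 174 to 347 at days 14 and 21. Markers of macrophages were present too, at a summed RQ of 0.249 to 1.09 at day 8 and 1.54 to 19.4 later. So were markers of chondrocytes (1.65 to 35.8) and of smooth muscle and myofibroblasts (4.13 to 8). Osteoclast markers summed to 0.348 to 1.09, with *Calcr* at 0 in WT at day 14 and in Het at days 14 and 21. Those of blood vessel endothelium (at most 0.00625), lymphatic endothelium (at most 0.00583, with *Ccl21a* at 0), adipocytes (at most 0.00356), B and T cells (at most 0.000822) and skeletal muscle (at most 0.0349) were near 0. From day 8 to the later days 5 of 6 tested osteoclast markers were higher. Lower were 5 of 7 chondrocyte markers, 3 of 4 skeletal muscle markers and 3 of 5 smooth muscle markers, while 1 of each of these lists was higher. Among all genes tested 40.9% were higher and 17.4% lower. In bulk RNA, fewer cells of a type and less RNA per cell cannot be told apart.

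The bases just before the transcription start are shown for the genes whose levels differed most in these cultures, *Sost* and *Phex*, which rose together from near 0, and *Fgf23*, which stayed at single reads. The windows are from RefSeq on GRCm38.p6, 250 bases each, 5′ to 3′ on the gene's strand, at chr11:101967016-101967265 (minus strand, *Sost*), chrX:157415287-157415536 (minus strand, *Phex*) and chr6:127072652-127072901 (plus strand, *Fgf23*). Capitals mark TTTAAA.
Sost: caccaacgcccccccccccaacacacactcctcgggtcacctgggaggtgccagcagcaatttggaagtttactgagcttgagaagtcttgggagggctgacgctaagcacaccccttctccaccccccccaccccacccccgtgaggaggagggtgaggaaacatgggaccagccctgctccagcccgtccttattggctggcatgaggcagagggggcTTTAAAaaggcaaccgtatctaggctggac
Phex: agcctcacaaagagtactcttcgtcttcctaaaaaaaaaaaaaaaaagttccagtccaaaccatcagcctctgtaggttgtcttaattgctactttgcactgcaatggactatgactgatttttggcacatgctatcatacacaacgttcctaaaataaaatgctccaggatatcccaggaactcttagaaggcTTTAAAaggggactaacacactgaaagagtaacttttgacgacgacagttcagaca
Fgf23: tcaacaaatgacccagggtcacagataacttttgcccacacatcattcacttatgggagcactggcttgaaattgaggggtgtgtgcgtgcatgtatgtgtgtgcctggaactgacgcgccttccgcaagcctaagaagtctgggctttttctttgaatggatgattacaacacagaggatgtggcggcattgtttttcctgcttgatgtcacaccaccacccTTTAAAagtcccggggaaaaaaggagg

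TTTAAA stood from base -30 to -25 before the start in *Sost*, from -27 to -22 in *Fgf23* and from -56 to -51 in *Phex*. The other members had it too, from -49 to -44 in *Pdpn*, from -141 to -136 in the first window of *Mef2c* and from 2 to 7 after the start in *Gja1*. This word was chosen after the windows were read. It occurs in 13.2% of the 32851 windows of 300 bases (250 before and 50 after a start) of all genes in the table, and lies between -40 and -20 in 1.22% of them. The RUNX core, searched as TGTGGT or TGCGGT on both strands, was found in none of the windows of the 6 genes (8 windows, since *Mef2c* has 3) against 22.4% of all windows, and the MEF2 consensus in none against 3.19%. The E-box CANNTG was in the windows of *Sost* (2), *Phex* (1), *Pdpn* (2), *Fgf23* (1), *Gja1* (1) and in 2 of the 3 of *Mef2c*, and in 72.3% of all windows. The 3 windows shown, with the 50 bases after the start, held 38.7% G and C in *Phex*, 49% in *Fgf23* and 62% in *Sost* (median of all windows 52.7%). A match is a run of letters in these windows and says nothing of binding.

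**Figure D1:**
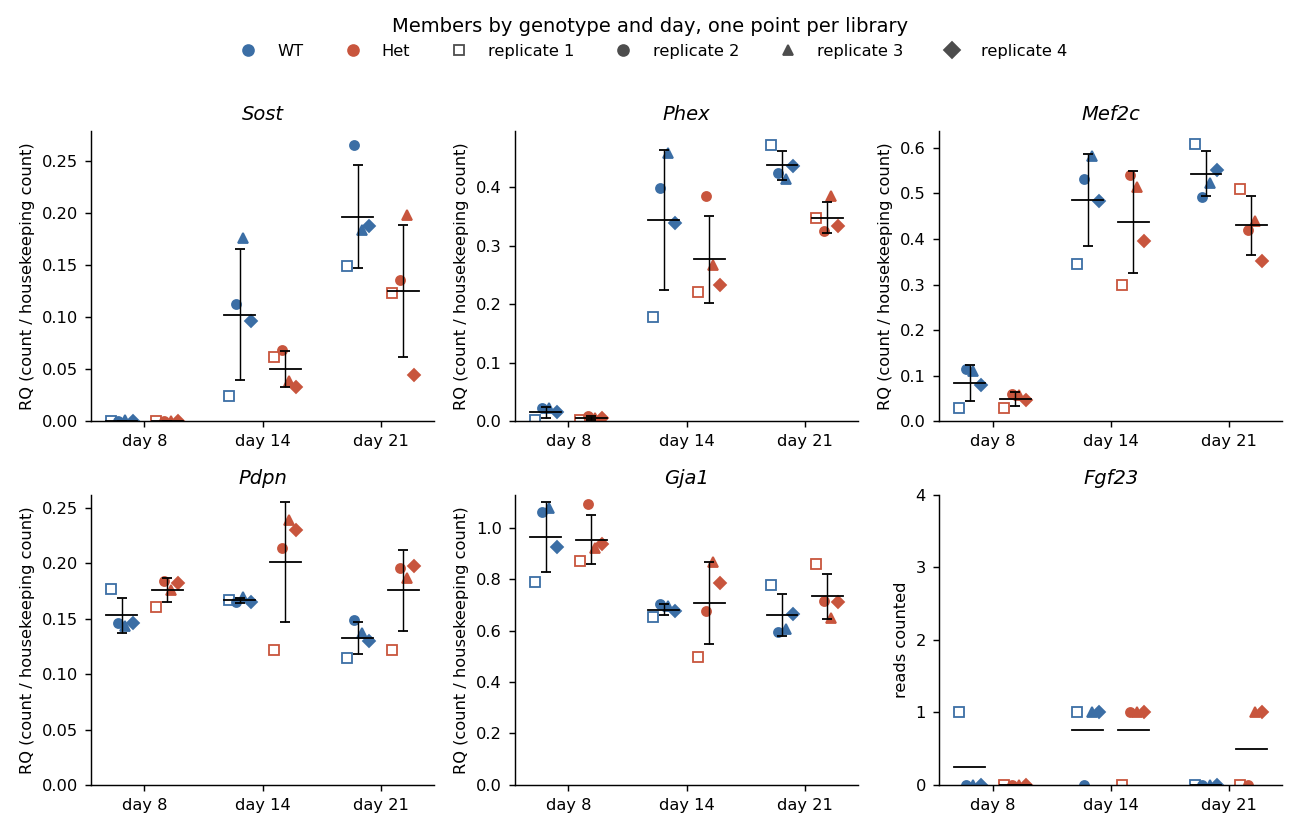
RQ of 5 genes and reads counted for Fgf23 (vertical axes) in WT (blue) and Het (red) cultures at days 8, 14 and 21; each point is a library, open squares are replicate 1, the bar is the mean and the whiskers the SD (n = 4, none drawn for Fgf23). Sost, Phex and Mef2c rose from day 8 without overlap with the later days, Gja1 fell, Pdpn stayed between 0.115 and 0.239, and no library had more than 1 read of Fgf23.

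*Sost* was all but silent at day 8 and was transcribed in every library at days 14 and 21. This gene (ENSMUSG00000001494.6, chromosome 11, 101962458 to 101967015, minus strand of GRCm38, 2 exons) had 0, 4, 18 and 6 reads in the 4 WT libraries of day 8 and 0, 0, 0 and 1 in the Het libraries. At day 14 its RQ in replicates 1 to 4 was 0.0240, 0.113, 0.177 and 0.0969 for WT, and 0.0613, 0.0682, 0.0383 and 0.0326 for Het. At day 21 WT had 0.149, 0.266, 0.184 and 0.188, and Het 0.123, 0.136, 0.198 and 0.0440. The day 8 libraries lay below all 16 later ones, and among the later libraries both days and both genotypes overlapped. Summed over libraries, 40870 reads at days 14 and 21 stood against 29 at day 8, an 834-fold difference per housekeeping read with a 95% exact interval of 580 to 1245 that covers counting error only. From day 8 to day 14 alone the ratio was 383 in WT (interval 265 to 577) and 4577 in Het (821 to 180900, resting on 1 read at day 8), and the difference in this step between genotypes did not pass the test (3.25 on the log2 scale, SE 2.5, edgeR's unadjusted p = 0.207). The mean RQ of days 14 and 21 was 0.119 ± 0.0714 (SD, n = 16), against 0.000139 ± 0.00025 (n = 8; exact permutation test, two-sided, unadjusted p = 0.000239). In edgeR's quasi-likelihood test the log2 fold change was 10.59 (SE 0.59, adjusted p = 3.29e-12, all 16 later libraries above all 8 of day 8). Its size depends on the count added to libraries at 0, and was 9.58 with 1 count added.

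*Phex* rose at the same step. *Phex* (ENSMUSG00000057457.11, X chromosome, 157162075 to 157415312, minus strand, 22 exons) was already measurable at day 8, with RQ of 0.00206, 0.0224, 0.0221 and 0.0156 for WT replicates 1 to 4, and 0.00178, 0.00837, 0.00614 and 0.00510 for Het. At day 14 WT had 0.179, 0.398, 0.458 and 0.339, and Het 0.221, 0.384, 0.266 and 0.233. At day 21 WT had 0.472, 0.425, 0.414 and 0.436, and Het 0.347, 0.325, 0.385 and 0.333. Replicate 1 was the lowest library of each genotype at days 8 and 14, but not at day 21. The mean RQ rose 33.6-fold from day 8 to days 14 and 21 (exact permutation test, two-sided, unadjusted p = 1.36e-06, the smallest this design can give), with a log2 fold change of 5.20 (SE 0.32, adjusted p = 1.39e-11).

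*Mef2c* rose with them from a higher start. *Mef2c* (ENSMUSG00000005583.16, chromosome 13, 83504034 to 83667080, plus strand, 21 merged exons) had RQ at day 8 of 0.0279, 0.115, 0.111 and 0.0799 for WT, and 0.0282, 0.0606, 0.0583 and 0.0462 for Het. Later it lay between 0.346 and 0.608 for WT, and between 0.298 and 0.540 for Het. Both ranges overlap, and neither reaches down to day 8. The mean rose 7.20-fold (unadjusted exact permutation p = 1.36e-06), with a log2 fold change of 2.89 (SE 0.21, adjusted p = 1.96e-10).

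*Gja1* and *Pdpn* did not share this rise. *Gja1* (ENSMUSG00000050953.10, chromosome 10, 56377330 to 56402513, plus strand, 5 exons) was the most counted of the 6 genes and fell, from an RQ between 0.787 and 1.09 at day 8 to one between 0.499 and 0.867 later. The later range overlaps that of day 8 in single libraries, and the fold change was 0.726 (unadjusted exact permutation p = 9.52e-06; log2 fold change -0.46, SE 0.08, adjusted p = 5.58e-05). *Pdpn* (ENSMUSG00000028583.14, chromosome 4, 143267431 to 143299564, minus strand, 6 exons) had a mean RQ of 0.165 ± 0.0174 (n = 8) at day 8 and 0.169 ± 0.0390 (n = 16) later, with a log2 fold change of 0.03 (SE 0.10, adjusted p = 0.83). The sign of that value turned with the scale, to -0.10 with TMM and -0.27 with total counts, where it passed the threshold (adjusted p = 0.0311) with 43.0% of all genes lower. Without replicate 1 it was 0.14 (adjusted p = 0.00136), with 50.2% of all genes higher.

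*Fgf23* (ENSMUSG00000000182.9, chromosome 6, 127072902 to 127081408, plus strand, 3 exons) had 9 reads among 1027057570 in the 24 libraries. It had exactly 1 read in 9 libraries and none in the other 15, with 1 read in all at day 8, 6 at day 14 and 2 at day 21, and 4 in WT against 5 in Het. A count of 0 allows up to 3 reads, an RQ of 9.69e-05 to 0.00034 depending on the library, so no level or difference of *Fgf23* was detectable at this depth, and it did not pass the filter on low counts.

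Of the 5 genes that could be tested, 3 rose and 1 fell from day 8 to the later days. Among all 20434 genes tested, 58.3% were called in this comparison, 40.9% higher and 17.4% lower, so a rise by itself sets none of these genes apart. The split of these calls depends on the scale: 70.1% of the called genes were higher with the housekeeping scale, 52.7% with TMM, 50.5% with DESeq2's size factors and 33.2% with total counts, and the median log2 fold change of all genes moved from 0.16 to 0.03, 0.02 and -0.14. The rises of *Sost*, *Phex* and *Mef2c* and the fall of *Gja1* passed the threshold under each of these scales. The later libraries and those of day 8 did not overlap for 13.7% of all genes, *Sost*, *Phex* and *Mef2c* among them. Macrophage markers rose at the same step (11 of 11 called), as did the osteoblast markers (10 of 10), and their part in these rises was not tested.

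Per kilobase of exon, the later cultures held *Pdpn* at an RQ of 0.0930 ± 0.0215, *Gja1* at 0.0678 ± 0.00919, *Sost* at 0.0575 ± 0.0346, *Phex* at 0.0558 ± 0.0140 and *Mef2c* at 0.0302 ± 0.00573 per kb (mean ± SD, n = 16). At day 8 *Gja1* (0.0934) and *Pdpn* (0.0905) were at like levels per kb, while *Mef2c* (0.00419), *Phex* (0.00166) and *Sost* (6.73e-05) followed far below. By day 21 *Sost* was at 0.0780 ± 0.0315 over both genotypes (n = 8). This spread overlapped those of *Gja1* (0.0679 ± 0.00859) and *Pdpn* (0.0848 ± 0.0189).

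Between days 14 and 21 only *Sost* passed the test among the 5 genes, against 12.1% of all genes that rose and 5.89% that fell. It was higher at day 21 in 8 of 8 same-numbered pairs of libraries (pairing between days was not checked), with ratios of mean RQ of 1.9 in WT and 2.5 in Het. The log2 fold change was 1.13 (SE 0.31, adjusted p = 0.0125 in edgeR's quasi-likelihood test; exact permutation p = 0.0135, unadjusted). The call was lost when replicate 2, 3 or 4 was left out (adjusted p = 0.0874, 0.0514 and 0.0841, log2 fold changes of 1.13 to 1.19), and kept without replicate 1 (1.09, adjusted p = 0.00507). The step did not differ between genotypes by more than its error (difference 0.40 on the log2 scale, SE 0.61).

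*Pdpn* was lower at day 21 than at day 14 in 8 of 8 pairs, though in Het replicate 1 the values were all but equal (0.1215 against 0.1217). Its 4 WT libraries of day 14 lay within 0.165 to 0.170 and those of day 21 within 0.115 to 0.149, with no overlap (unadjusted exact permutation p = 0.0286, the smallest possible with 4 against 4; 9.01% of all genes were lower in WT without overlap). Over both genotypes the log2 fold change was -0.26 (SE 0.11, adjusted p = 0.119), and -0.25 without replicate 1 (SE 0.04, adjusted p = 0.000107; 12.3% of all genes lower). With days swapped only within same-numbered pairs, the exact permutation p for *Pdpn* was 0.0078 (unadjusted, the smallest possible), against 0.130 without the pairing. Whether a replicate number pairs libraries of different days was not checked. *Phex* (0.34), *Mef2c* (0.07) and *Gja1* (0.00) did not pass. Without replicate 1 *Mef2c* came to -0.14 and *Gja1* to -0.16, neither past the threshold.

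*Sost* stood lower on average in Het than in WT cultures at days 14 and 21, without passing the threshold on all libraries. The mean RQ was 0.0501 ± 0.0173 in Het against 0.103 ± 0.0627 in WT at day 14 and 0.125 ± 0.0634 against 0.197 ± 0.0494 at day 21 (n = 4 each), a ratio of 0.586 over both days. Het was lower in 6 of 8 same-numbered pairs, and the libraries overlapped. The exceptions were replicate 1 at day 14, where Het was 2.55 times WT, and replicate 3 at day 21, at 1.08 times. The log2 fold change of -0.85 (SE 0.31) missed the threshold over all genes (adjusted p = 0.0625), and passed it with the replicate number as a block (-0.85, SE 0.27, adjusted p = 0.0276) and without replicate 1 (-1.13, SE 0.27, adjusted p = 0.00299). The unadjusted exact permutation p was 0.0808, and 0.0249 with libraries regrouped only within days.

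*Pdpn* went the other way and was the only one of the 5 genes past the threshold in this comparison, where 15.2% of all genes were called, 7.15% higher and 8.01% lower. The RQ at day 14 was 0.167, 0.165, 0.170 and 0.165 for WT replicates 1 to 4, and 0.122, 0.214, 0.239 and 0.230 for Het. At day 21 WT had 0.115, 0.149, 0.137 and 0.130, and Het 0.121, 0.196, 0.186 and 0.198. In replicates 2 to 4 Het stood above WT without overlap on both days, as did 18.5% of all genes at day 14 and 18.1% at day 21, while replicate 1 of Het was the lowest library of day 14 and lay within WT at day 21. The log2 fold change was 0.34 (SE 0.11, adjusted p = 0.0475; exact permutation p = 0.0443, unadjusted), 0.32 with the replicate block (adjusted p = 0.0265) and 0.46 (SE 0.04, adjusted p = 1.39e-07) without replicate 1, and the call was lost in 23 of the 28 fits that left out 1 library or 1 replicate number, down to 0.26 (adjusted p = 0.442) without replicate 4. Macrophage markers were higher in Het at the same days (10 of 11 called; summed RQ at day 21 of 6.61 to 7.65 in WT and 8.74 to 19.4 in Het, at day 14 of 1.54 to 4.95 and 3.42 to 7.88). At days 8 and 14 replicate 1 was the pair in which Het stood below WT both in *Pdpn* and in the macrophage sum (0.415 against 0.492, and 3.42 against 4.95). From day 14 to day 21, 11 of 11 macrophage markers were called higher (12.1% of all genes), while *Pdpn* was lower in 8 of 8 same-numbered pairs. The part of macrophages in the *Pdpn* difference was not tested.

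**Figure D2:**
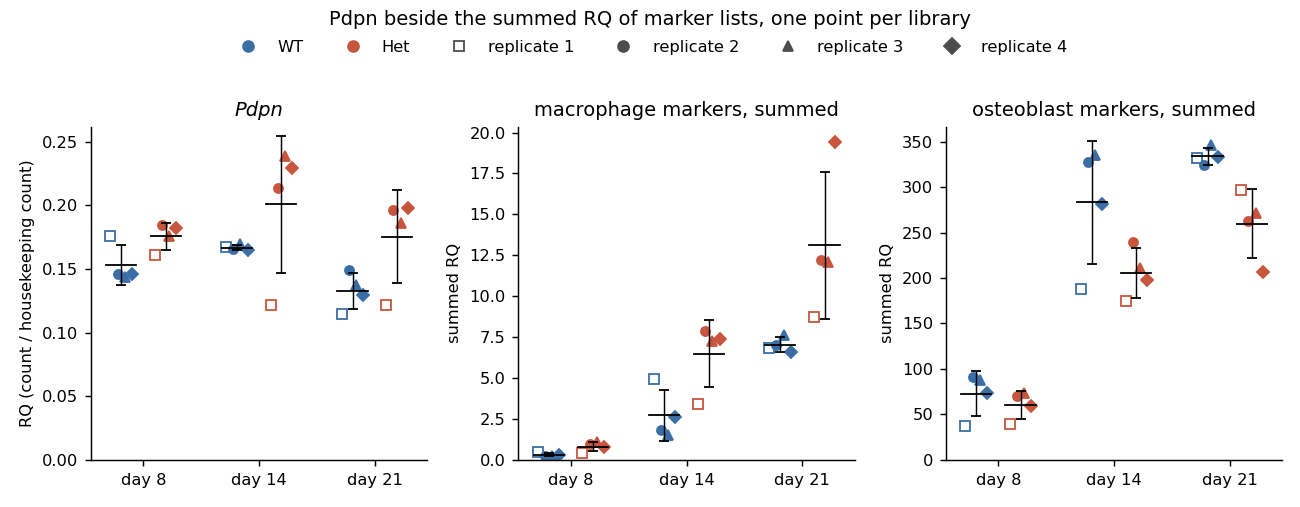
Pdpn RQ (left) beside the summed RQ of 11 macrophage markers (middle) and 10 osteoblast markers (right) by genotype and day; points are libraries, open squares replicate 1, bars means and whiskers SD (n = 4). Among replicates 2 to 4, Het libraries were above WT in Pdpn and in the macrophage sum on each day, and below WT in the osteoblast sum on each day.

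*Phex* was lower in Het in 7 of 8 later pairs. At day 21 its 4 Het libraries (0.325 to 0.385) lay below the 4 WT libraries (0.414 to 0.472), a ratio of 0.795 (exact permutation p = 0.0286, the smallest possible; 4.51% of all genes were lower without overlap at that day). Over both days the log2 fold change was -0.32 (SE 0.27, adjusted p = 0.466), and -0.36 (SE 0.12, adjusted p = 0.0224) without replicate 1. *Mef2c* was lower in 7 of 8 pairs too, with a log2 fold change of -0.24 (SE 0.21, adjusted p = 0.476), and -0.25 (SE 0.10, adjusted p = 0.0462) without replicate 1. With genotypes swapped only within same-numbered pairs, the unadjusted exact permutation p was 0.0313 for *Phex* and 0.0156 for *Mef2c*, against 0.0732 and 0.0721 without the pairing. With libraries regrouped only within days it was 0.0453 for *Phex* and 0.0780 for *Mef2c*. *Gja1* was higher in 6 of 8 pairs, by 0.10 (SE 0.10, adjusted p = 0.53) and by 0.16 without replicate 1 (adjusted p = 0.0562). Osteoblast markers were lower in Het at these days (3 of 10 called, against 8.01% of all genes), with a summed RQ, most of it from *Col1a1* and *Col1a2*, of 324 to 347 in WT and 207 to 297 in Het at day 21. The chondrocyte sum was lower in Het in replicates 2 to 4 on each day (1.65 to 2.35 against 6.46 to 9.37 at day 21), but not in replicate 1 at day 14 (26.1 against 24.3) or day 21 (13.3 against 12.8). At day 8 it was 34.6 in Het and 35.8 in WT in replicate 1. In edgeR's test 1 of 7 chondrocyte markers, *Sox9*, was called lower in Het at the later days (8.01% of all genes). At day 8 none was called (0.631% of all genes). The part of these cells was not tested. Without replicate 1, 41.9% of all genes were called (18.4% higher, 23.5% lower), and 24.5% with the replicate block, so calls in those fits stand against a higher background.

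**Figure D3:**
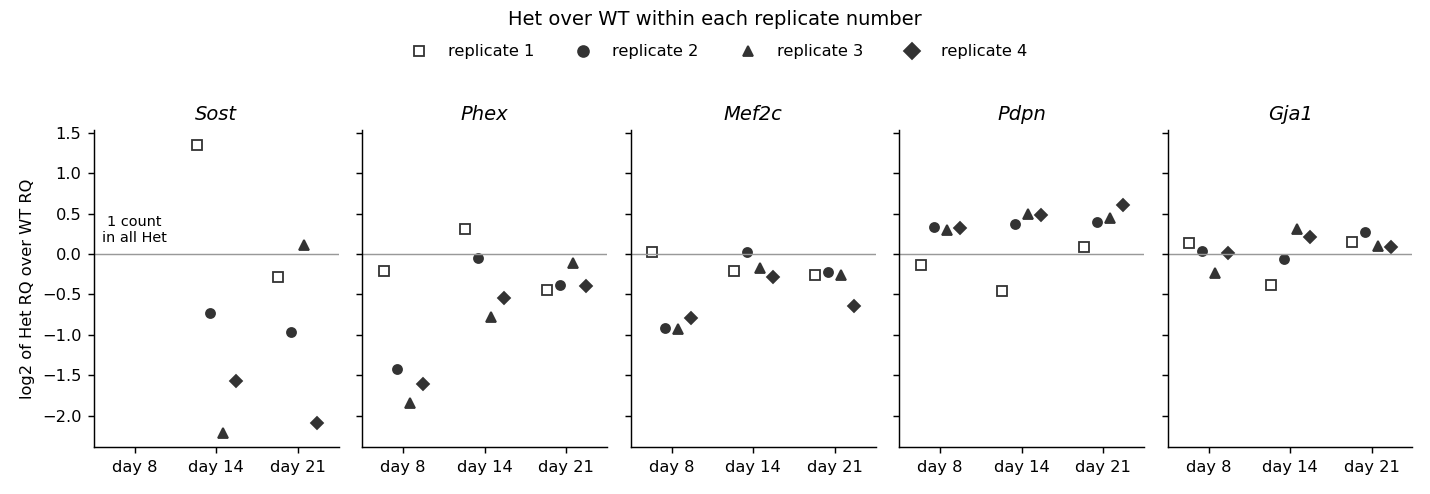
Log2 of Het RQ over WT RQ (vertical axis) within each replicate number, by day and gene; open squares are replicate 1, and Sost at day 8 is left out since the 4 Het libraries held 1 read in total. Replicate 1 stood on the other side of 0 from replicates 2 to 4 for Sost and Phex at day 14, for Mef2c at day 8 and for Pdpn at days 8 and 14.

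At day 8 the members with the largest gaps between genotypes were *Sost* and *Phex*, neither past the threshold on all libraries. *Phex* was lower in Het in 4 of 4 pairs, at ratios of 0.864, 0.374, 0.278 and 0.328 in replicates 1 to 4, and the log2 fold change of -1.52 (SE 0.43) had an adjusted p of 0.121. It passed the threshold with the replicate block (-1.50, SE 0.37, adjusted p = 0.0442) and without replicate 1 (-1.61, SE 0.21, adjusted p = 7.08e-05). *Mef2c* was at a ratio of 1.01 in replicate 1 and at 0.529, 0.526 and 0.579 in replicates 2 to 4. Its log2 fold change was -0.79 (SE 0.30, adjusted p = 0.332), and -0.89 (SE 0.14, adjusted p = 0.000546) without replicate 1. For *Sost*, 1 read in Het stood against 28 in WT, a ratio of 0.0326 per housekeeping read (95% exact interval 0.000796 to 0.197, counting error only). 18 of the 28 WT reads came from 1 library, and edgeR's adjusted p was 0.563 (DESeq2's Wald test 0.0129). *Pdpn* was higher in Het by 0.20 (SE 0.16, adjusted p = 0.756), and by 0.32 (SE 0.06, adjusted p = 0.000984) without replicate 1.

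In edgeR's quasi-likelihood test none of the 5 genes was called at day 8, against 0.631% of all genes (129, or 315 with the replicate block, 1.54%). Of the 5, 2 had an unadjusted p under 0.05, as did 2062 of all 20434 genes, and DESeq2 called 1 (*Sost*) with 2.24% of all genes. Without replicate 1 *Phex* and *Mef2c* were called lower and *Pdpn* higher, against 17.3% of all genes (13.2% lower, 4.14% higher). At day 8 also, 5 of 11 macrophage markers were higher in Het and 1 of 10 osteoblast markers was lower, the osteoblast sum of replicates 2 to 4 was 59.1 to 73.3 in Het and 73.9 to 91.7 in WT, and their part was not tested. The interaction, the genotype difference at days 14 and 21 minus that at day 8, was called for none of the 5 by edgeR or DESeq2, against 0.171% of all genes (35, or 67 with the block, 0.328%). *Phex* had the smallest unadjusted p, 0.0285, with a smaller deficit in the later Het cultures (1.20 on the log2 scale, SE 0.51, adjusted p = 0.751). Without replicate 1 the interaction passed for *Phex* (1.25, SE 0.24, adjusted p = 0.00613) and *Mef2c* (0.63, SE 0.17, adjusted p = 0.044), where 3.93% of all genes were higher.

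**Figure D4:**
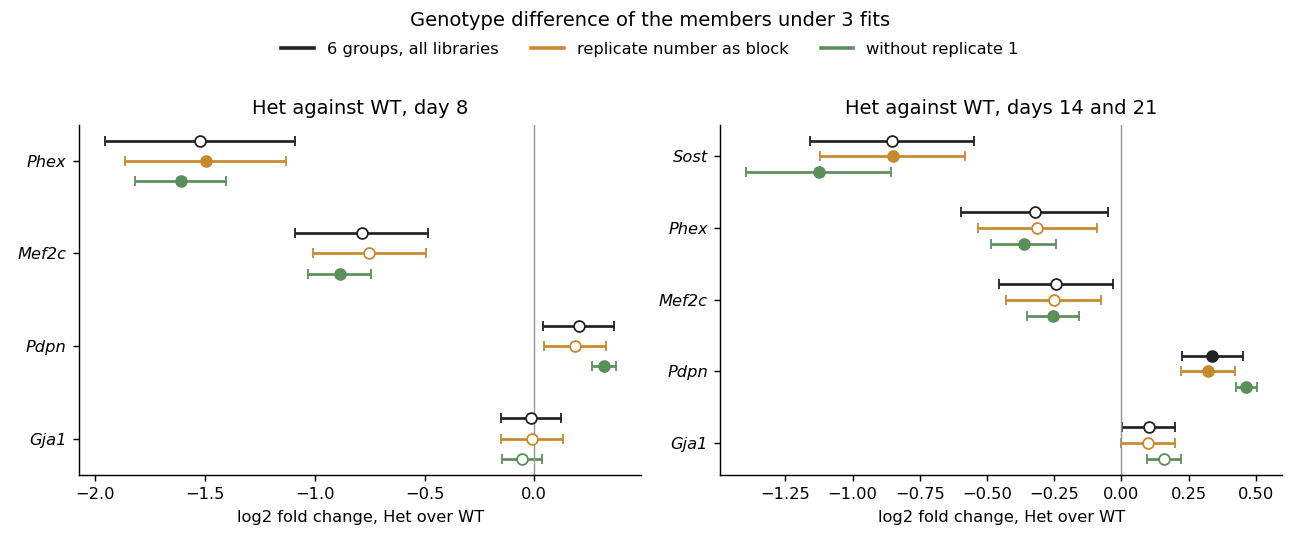
Log2 fold change of Het over WT (horizontal axis, whiskers SE) at day 8 and at days 14 and 21 in edgeR's quasi-likelihood test on all libraries (black), with the replicate number as a block (ochre) and without replicate 1 (green); filled points have an adjusted p under 0.05. For the genes drawn, the SE was smaller without replicate 1 than on all libraries, and there Phex, Mef2c and Pdpn passed in both comparisons.

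Other osteocyte genes were set beside the members through a list of 12. From day 8 to the later days 9 rose and 1 fell (40.9% and 17.4% of all genes), with a median log2 fold change of 1.21 against 0.16 over all genes. *Mepe*, a matrix phosphoglycoprotein of osteocytes, rose by 9.57 (SE 0.97), *Ptprz1* by 6.02 (SE 0.35) and *Dkk1*, a secreted Wnt antagonist like sclerostin, by 5.48 (SE 0.37) on the log2 scale. *Dmp1*, the matrix protein that works with PHEX, rose by 4.04 (SE 0.27, adjusted p = 4.01e-11). From day 14 to day 21, 3 rose and 1 fell (12.1% and 5.89% of all genes), among them *Mepe* (1.83, SE 0.57) and *Tnfsf11*, which encodes the osteoclast factor RANKL (1.59, SE 0.35). In Het at the later days *Capg*, an actin capping protein (0.47, SE 0.13, adjusted p = 0.0209), and *Npy* (1.02, adjusted p = 0.043) were higher and *Sostdc1*, a relative of *Sost*, was lower (-1.49, adjusted p = 0.0298), with a list median of -0.30 against -0.05 over all genes. Of all genes 7.15% were higher there and 8.01% lower. *Npy* and *Sostdc1* averaged under 50 counts per library, below the minimum set for naming genes from the lists, so their changes rest on few reads. At day 8 *Dmp1* was lower in Het by 2.42 on the log2 scale (SE 0.40, adjusted p = 0.00854), with a mean RQ of 0.00383 ± 0.000875 in Het against 0.0197 ± 0.0111 in WT (n = 4). *Dmp1* was the 1 gene of the 12 called there, against 0.631% of all genes.

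**Figure D5:**
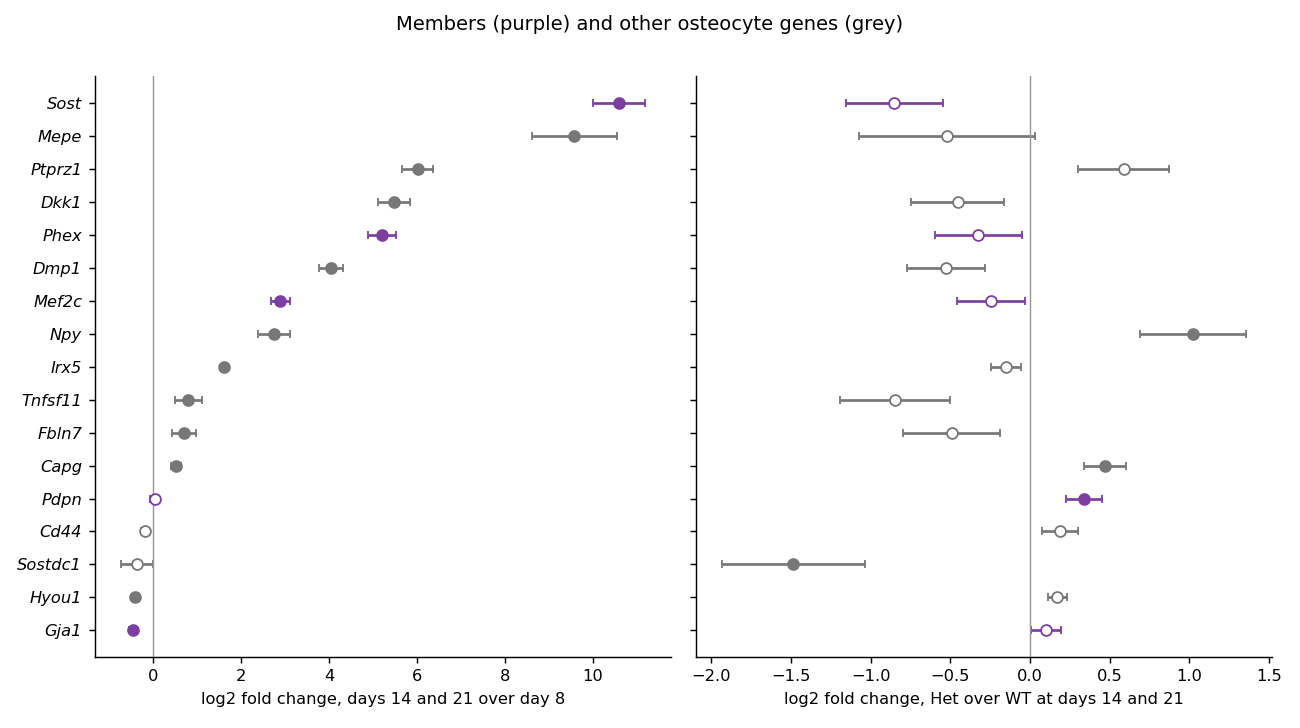
Log2 fold change (horizontal axes, whiskers SE) of the members (purple) and of 12 other osteocyte genes (grey) for days 14 and 21 over day 8 (left) and Het over WT at days 14 and 21 (right); filled points have an adjusted p under 0.05 in edgeR's quasi-likelihood test. The stage fold changes run from 10.59 for Sost to -0.46 for Gja1, and 4 of the 17 genes passed in the genotype comparison, against 15.2% of all genes. Among these 4, Npy and Sostdc1 averaged under 50 counts per library.

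Around *Phex* and *Fgf23*, a list of genes of phosphate and FGF23 handling had 10 testable members, of which 6 rose and 2 fell with the stage, beside 40.9% and 17.4% of all genes. *Galnt3*, whose enzyme glycosylates FGF23 and shields it from cleavage, rose by 3.11 (SE 0.15), and *Enpp1*, which makes the mineral inhibitor pyrophosphate, fell by 0.96 on the log2 scale (adjusted p = 0.00233). *Furin*, the protease that cuts FGF23, was lower in Het at the later days (-0.23, SE 0.05, adjusted p = 0.00553), and was the only called gene of the list there, where 15.2% of all genes were called. The receptors and targets that sclerostin acts on (11 tested) had 6 higher and 2 lower with the stage, against the same 40.9% and 17.4%. *Tcf7* (1.81, SE 0.167), *Lrp4* (1.75, SE 0.185) and *Lrp5* (1.49, SE 0.13) rose, while *Lef1*, a transcription factor and Wnt target, fell by 1.47 on the log2 scale. From day 14 to day 21 *Lef1* (-1.0), *Tcf7* (-0.71) and *Axin2* (-0.60) fell, and at day 8 *Tcf7* was lower in Het (-1.11, SE 0.26, adjusted p = 0.0487). In later Het cultures, where 8.01% of all genes were lower and 7.15% higher, 3 were lower and none higher, namely *Lef1* (-0.93, SE 0.29, adjusted p = 0.0338), *Lrp5* (-0.52, SE 0.14, adjusted p = 0.0191) and *Lrp6* (-0.27, SE 0.07, adjusted p = 0.0172).

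Of 11 other MEF2 genes and regulators of *Sost*, 7 rose and 1 fell with the stage (40.9% and 17.4% of all genes). *Pth1r*, the receptor for parathyroid hormone, which lowers *Sost* transcription, rose by 2.02 (SE 0.15) and *Mef2a* by 1.68 (SE 0.09). In later Het cultures 4 were lower (8.01% of all genes), namely *Runx2* (-0.39, SE 0.13, adjusted p = 0.041), *Mef2a* (-0.38, adjusted p = 0.0117), *Hdac5* (-0.20, adjusted p = 0.0348) and *Sik3* (-0.13, adjusted p = 0.0254). The other connexins and pannexins split, with 4 of 13 tested higher and 7 lower with the stage, where all genes had 40.9% and 17.4%. *Panx3*, a channel of maturing osteoblasts, rose by 2.93 (SE 0.21) and *Gjb2*, connexin 26, fell by 3.40 on the log2 scale. None differed between genotypes in edgeR's test at the later days, where 15.2% of all genes were called. Among 7 tested partners of podoplanin, 4 were higher and 1, the ERM gene *Ezr* (-1.09, SE 0.16), lower with the stage (40.9% and 17.4% of all genes). None was called between genotypes at day 8 or later (0.631% and 15.2% of all genes).

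For *Sost*, *Phex*, *Mef2c*, *Pdpn* and *Gja1* the nearest genes in pattern were taken as those with the smallest root mean square (RMS) difference of log2 RQ over the 24 libraries, each gene centred on its own mean, among the other 14889 genes with at least 50 counts on average. For *Sost* these were *Bglap* (osteocalcin, RMS 1.71), *Lipc* (1.86) and *Ccdc194* (1.97), against a median of 5.02 over all genes. For *Phex* they were *Lpar3* (0.477), *Ighm* (0.522) and *Col13a1* (0.580), with a median of 2.70. For *Mef2c* they were *Col24a1* (0.213), *Cdo1* (0.222) and *Tmem119* (0.230), with a median of 1.46. *Pdpn* was nearest to the histone gene *H2afz* (0.154) and *Gja1* to *Ppat* (0.144), both with medians near 0.4 (0.391 and 0.404). The libraries share days, replicate numbers and a housekeeping scale, so this is a description of likeness and no test.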

How the data were processed

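Primary osteoblast cultures were sequenced as polyA RNA (TruSeq libraries). Per the labels, the authors made the deposited counts, whole numbers of reads per gene, with cutadapt 2.5, STAR 2.73a and Subread featureCounts 1.6.4 on mm10, and the files give a length per gene. Of 55335 gene identifiers 54587 are in GENCODE mouse release 21. Whether reads were counted by strand is not given in the sources used here.

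Libraries were grouped by the genotype and day of their labels. RQ is the count over the geometric mean count of 4 housekeeping genes, after the study's methods. All genes passing filterByExpr (20434) were tested with edgeR 4.0.16 (quasi-likelihood test, 6 groups, housekeeping scale, limma 3.58.1, R 4.3.3) with Benjamini-Hochberg adjustment at 0.05, which is the adjusted p of the text. The SE is the size of the log2 fold change over the square root of F. Mean RQ was compared with two-sided exact permutation tests (40 tests, unadjusted; scipy 1.17.1). Intervals and floors (3 counts) cover counting error only. The edgeR fit was tested on simulated counts of independent libraries, with the same spread for every gene and housekeeping counts free of noise. That test does not cover the differences between replicates seen here. DESeq2 1.42.0, other scales, filters and left-out libraries served as alternatives.

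The members and gene lists were chosen with earlier results of these data known. Named are all members, up to 3 genes per list and comparison with the largest change past the threshold (mean of at least 50 counts), and the 3 genes nearest each member. *Enpp1*, *Lef1* with stage, *Sik3*, *Npy*, *Sostdc1* and *Dmp1* as compared in RQ were added after their values were seen. Of these, *Npy* and *Sostdc1* lay below the mean of 50 counts. Libraries of a group differed by more than counting noise in all 36 pairs (chi-square per degree of freedom 4.78 to 193).

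Replicate numbers come from the labels. Deviations from group means correlated in all 12 same-numbered pairs of a WT and a Het library of a day (0.252 to 0.779), and the numbers were taken to pair the samples. In the 36 pairs of different numbers the correlation ran from -0.651 to 0.498, with 17 over 0.1. Most of the correlation of same-numbered pairs came from replicate 1: among replicates 2 to 4 alone their median was 0.102, with 5 of 9 pairs over 0.1. Pairs of different numbers there had a median of -0.065, with 0 of 18 over 0.1. Pairing between days was not checked. The labels do not say which litter or experiment a number stands for.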

Additional observations from a re-analysis of the deposited data

Results flagged for a closer look

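In 3 of 30 groups of 4 libraries, 1 library lay apart from the other 3 by Dixon's 95% criterion, which chance gives in about 1 of 20 groups. *Pdpn* in Het at day 21 was 0.1215 in replicate 1, against 0.186 to 0.198 in the others. *Pdpn* in WT at day 8 was 0.1764 in replicate 1, against 0.143 to 0.146. Both come from replicate 1, and without it the *Pdpn* difference between genotypes at the later days was 0.46 on the log2 scale. *Sost* in Het at day 8 was 3.23e-05 in replicate 4, which is 1 read, against 0 in the other 3.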

How the results depend on the processing

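Over 1064 alternatives to the 25 log2 fold changes of the members, 983 kept their direction and their side of the threshold, 32 lost a call, 21 gained one and 28 changed sign, the latter at sizes up to 0.272. With the replicate block 23 of 25 were kept. The exceptions were *Sost* between genotypes later (-0.851, adjusted p = 0.0276) and *Phex* at day 8 (-1.497, adjusted p = 0.0442), so the block changed no other call of edgeR's test. In the exact tests of RQ, swapping within replicate pairs took *Phex* and *Mef2c* between genotypes later past 0.05, unadjusted. It did so too for *Pdpn* from day 14 to day 21, where the pairing was not checked, and left the other 7 on their side. Regrouping libraries only within days took *Sost* (0.0249) and *Phex* (0.0453) between genotypes later past 0.05, unadjusted, but not *Mef2c* (0.0780). In edgeR's test, replicate 1 as a covariate gave -0.790 (adjusted p = 0.048) for *Sost* between genotypes later and -1.497 (adjusted p = 0.0346) for *Phex* at day 8. It gave -0.264 (adjusted p = 0.0471) for *Pdpn* from day 14 to day 21. *Pdpn* with stage changed sign to -0.099 with TMM, -0.114 with DESeq2's size factors and -0.272 with total counts (RQ ratio 0.8366). *Gja1*, near 0 throughout, turned from day 14 to day 21 to -0.027, -0.045 and -0.049 on those scales (ratio 0.9678 with total counts) and to -0.030 without *Mrfap1*, and at day 8 to 0.079, 0.085 and 0.085 (ratio 1.06) and to 0.007 without *Actb*. The *Pdpn* call between genotypes was lost without *Mrfap1* (0.336, adjusted p = 0.0815) or *Sdha* (0.321, adjusted p = 0.0564), with no filter (0.338, adjusted p = 0.0673), with only the groups compared (0.338, adjusted p = 0.0857) and against a minimum change of 20% (0.338, adjusted p = 0.649). Its RQ ratio was 0.8637 in replicate 1 alone. The *Sost* step from day 14 to day 21 missed the threshold against a change of 20% (1.133, adjusted p = 0.0541), and DESeq2's Wald test called *Sost* at day 8 (-4.520, adjusted p = 0.0129). The cause was not tested for any of these.

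Genes called numbered 7011 with stage, 944 from day 14 to day 21, 449 between genotypes later, 38 at day 8 and 15 for the interaction when a change of 20% was required. With the replicate block and with the covariate they numbered 5005 and 5365 between genotypes later, 315 and 391 at day 8, and 67 and 73 for the interaction. DESeq2 called 458 at day 8 and 91 for the interaction, and the fit of only the day 8 groups called 0 in edgeR's test. Of the calls, 47.2% were higher in Het later and 50.4% at day 8, against 64.1% and 67.4% with TMM, 63.1% and 67.8% with DESeq2's size factors and 77.3% and 64.2% with total counts; from day 14 to day 21 67.3% were higher, against 58.8%, 51.6% and 50.5%.

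Leaving out 1 library or replicate number moved *Pdpn* with stage between -0.024 and 0.139. From day 14 to day 21 *Sost* ranged from 0.973 to 1.329, *Pdpn* from -0.350 to -0.192 (called without replicate 1, and without Het day 14 replicate 1, adjusted p = 0.00602), *Mef2c* from -0.145 to 0.178 and *Gja1* from -0.161 to 0.110 (RQ ratios without replicate 1 of 0.9109 and 0.8945), and genes called from 1325 (without replicate 4) to 6142 (without replicate 1). Between genotypes later *Sost* ranged from -1.126 to -0.652 (called without replicate 1, without WT day 14 replicate 1, adjusted p = 0.00886, and without Het day 21 replicate 3, adjusted p = 0.0421), *Phex* from -0.429 to -0.238, *Pdpn* from 0.264 to 0.465, *Mef2c* from -0.310 to -0.172 and genes called from 86 (without replicate 4) to 8236 (without replicate 1). At day 8 *Phex* ranged from -1.848 (without WT replicate 1, adjusted p = 0.00365) to -1.290, *Pdpn* from 0.157 to 0.316, *Mef2c* from -1.068 (without WT replicate 1, adjusted p = 0.0228) to -0.595, *Gja1* from -0.098 to 0.063 and genes called from 0 to 3405. For the interaction *Phex* ranged from 0.967 to 1.524, *Mef2c* from 0.350 to 0.824, *Gja1* from -0.005 to 0.215 and genes called from 0 to 928. Not run were the fit of only the groups compared for stage and interaction, which use all groups, and for *Sost* at day 8, which failed its filter, and the sum of entries sharing a symbol, since each member has 1 entry.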
